A study of Mus musculus with 35 samples.

Results

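Gene expression was compared between whole lungs of 5 male CD-1 mice that inhaled styrene at 10 ppm and of 5 that inhaled air with no styrene. These 10 mice were chosen by the concentration in their labels, out of 35 mice in 7 groups of 5, and each gave 1 microarray. The groups next to 10 ppm in concentration, 5 mice at 5 ppm and 5 at 20 ppm, served as further references, and 5 mice at 1 ppm as an alternative to air. All were adult males of an outbred stock. They were housed on a light-dark cycle and killed on the morning after the last exposure. The labels disagree on its length: the protocol and the design text give a single exposure of 6 hours and the titles 1 day, whereas the sample characteristics and the series title give 5 days. Values are deposited log2 levels from RMA (robust multi-array average, which corrects background, normalises and summarises the probes of a probe set), with 1 probe set for each of 17097 genes. A difference of 1 on this scale is 2-fold, and levels of different genes are not compared.

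Styrene is a solvent and plastics monomer that enters mainly through the airways. In the mouse lung it is oxidised by cytochrome P450 enzymes, above all Cyp2f2 of the club cells, the secretory cells that line the bronchioles, with Cyp2e1 as another styrene oxidase. The products include styrene oxide, a reactive epoxide, which microsomal epoxide hydrolase (Ephx1) hydrolyses and glutathione S-transferases couple to glutathione. Club cell injury, regeneration and, after long exposure, lung tumours are known from styrene-exposed mice.

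Defining genes of lung cells had bright probe sets on every array. The surfactant gene Sftpc of alveolar type 2 cells, the secretoglobin gene Scgb1a1 of club cells and Ager of alveolar type 1 cells lay between 13.37 and 13.90 in the 10 ppm mice and between 13.54 and 13.83 in the air mice. Genes of liver, thyroid, squamous epithelium and pancreatic islet (Alb, Ttr, Tg, Krt5 and Ins2) lay between 2.38 and 6.08 at 10 ppm and between 2.97 and 6.86 in air. Probe sets differ in brightness, so these levels are a description and no measure of purity.

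The arrays of the 2 groups also differed as a whole. The interquartile range over all 45037 probe sets was 3.36 to 3.45 log2 in the 10 ppm mice and 2.94 to 3.16 in the air mice, with no overlap. Pairwise correlations between mice of a group were 0.988 to 0.993 at 10 ppm and 0.968 to 0.988 in air. An array axis was taken as the main direction along which mice of the same group differed from each other, which held 18.8% of the within-group spread. On it the 10 ppm mice scored between -0.79 and -0.08 and the air mice between 0.65 and 1.91. Air and 1 ppm arrays stood on one side of both measures and the arrays from 5 to 120 ppm on the other. No label gives a scan or extraction batch, so an array batch and the exposure cannot be told apart. Axis-adjusted counts and changes stand beside the gene groups. Because the groups do not overlap on the axis, these values are extrapolated.

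**Figure D1:**
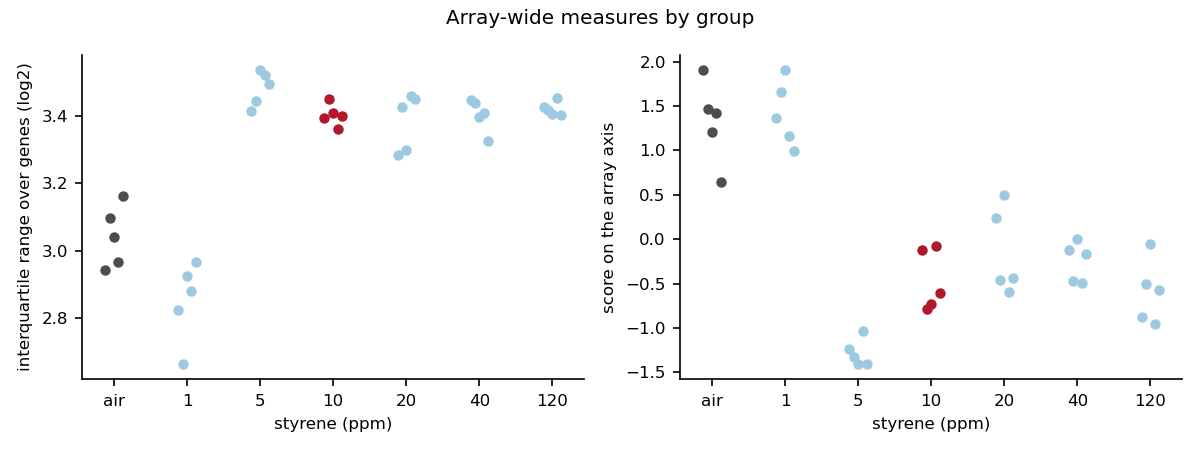
Interquartile range of the levels of all 45037 probe sets (left, log2) and score on the array axis (right, no unit) for each mouse, by styrene concentration in ppm. The 10 ppm mice, in red, lie above all air mice on the left and below all air mice on the right.

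Most genes differed between 10 ppm and air. Limma, a linear model over all 7 groups with moderated variances, called 11351 of 17097 genes (66.4%) at an adjusted p under 0.05, and of all genes 29.0% were higher and 37.4% lower at 10 ppm. The 5 mice of one group did not overlap with those of the other for 8419 genes (49.2%). The median change over all genes was -0.14 log2, and 4306 genes differed by at least 1 log2. Every count of called genes in a list stands against this background. After adjustment for the array axis, 4081 genes (23.9%) were called, 2130 higher and 1951 lower. Of the 131 genes named by rule for this comparison, 125 were called. Under that adjustment 30 of the 125 lost their call, 8 of them with a turn in sign, 3 uncalled genes also turned, 1 gained a call and 50 others moved by over 1.5 times.

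**Figure D2:**
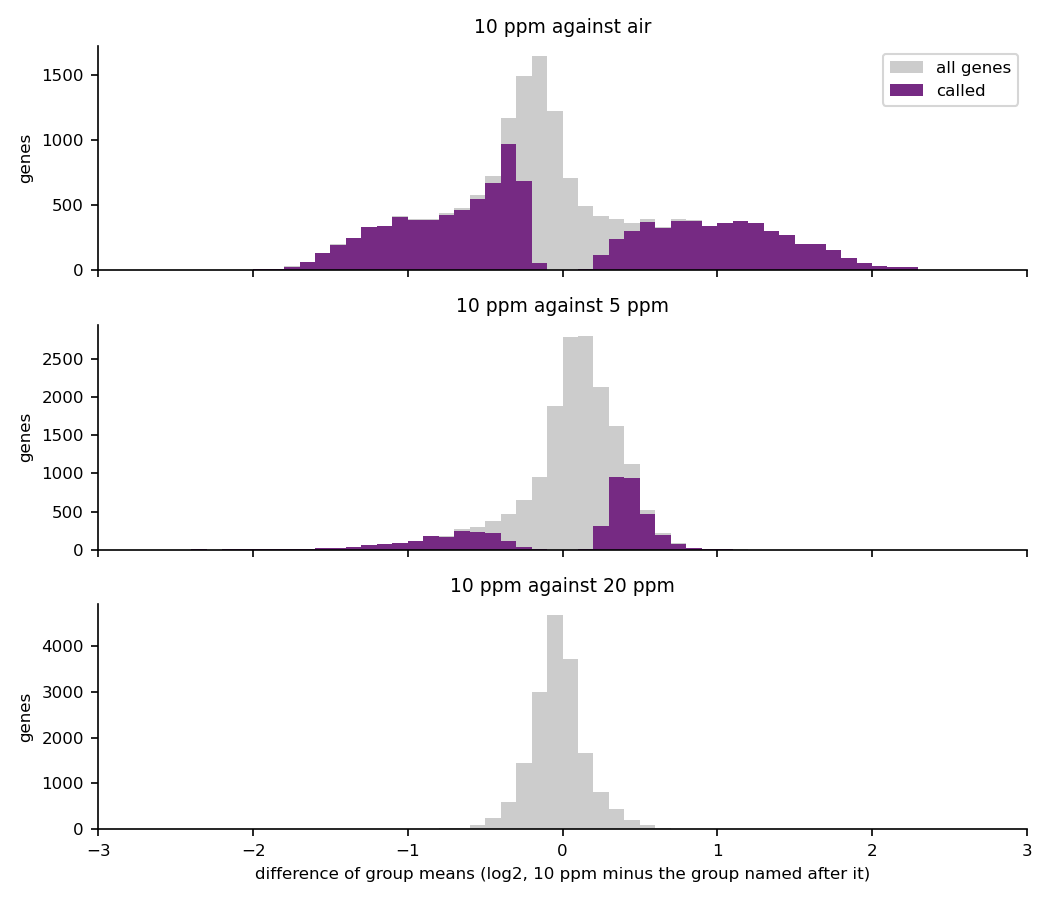
Histograms of the difference of group means over 17097 genes in steps of 0.1 log2, for 10 ppm minus air, minus 5 ppm and minus 20 ppm. Grey bars are all genes and purple bars called genes: 11351 against air, 4658 against 5 ppm and 0 against 20 ppm.

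The largest changes were taken among called genes whose groups did not overlap and whose higher group mean was at least 6 log2. The rises were in genes of varied function. Tspan2, which encodes a tetraspanin of the cell membrane, had levels of 8.35, 9.16, 8.79, 8.16 and 9.05 in the 10 ppm mice, against 6.10, 6.19, 6.10, 5.74 and 6.88 in the air mice. It was 5.65-fold higher at 10 ppm, a log2 change of 2.50 ± 0.23 (SE, adjusted p = 3.8e-11). Msh6, a subunit of the DNA mismatch recognition complex, had levels of 6.44, 6.75, 6.53, 6.57 and 6.52 in the 10 ppm mice, against 4.05, 4.19, 4.22, 3.77 and 4.36 in the air mice, with a change of 2.44 ± 0.14 (SE, adjusted p = 7.1e-15). Both genes had every 10 ppm mouse more than 1 log2 above every air mouse. Cxadr, the coxsackievirus and adenovirus receptor of epithelial junctions, had levels of 7.46, 8.37, 7.97, 7.34 and 7.70 in the 10 ppm mice, against 5.70, 5.46, 4.91, 4.77 and 5.98 in the air mice, with a change of 2.41 ± 0.24 (SE, adjusted p = 1.4e-10). The chitinase-like gene Chil4, which mouse airways make in type 2 inflammation, had levels of 11.22, 11.95, 12.04, 11.59 and 11.77 in the 10 ppm mice, against 8.74, 9.68, 9.82, 9.22 and 9.51 in the air mice, with a change of 2.32 ± 0.21 (SE, adjusted p = 3.3e-11). Chil4 was 4.99-fold higher. The other 8 of the 12 largest rises lay between 2.27 and 2.37 log2. They were Lin7c (a polarity scaffold protein), Tdrd3 (a Tudor domain protein), Lrpprc (a mitochondrial RNA-binding protein), Hsdl2 (a peroxisomal dehydrogenase-like protein), Myof (myoferlin, of membrane repair), Insyn2a (of inhibitory synapses), the splicing factor Slu7 and Drc3 (of the ciliary dynein regulatory complex). The probe sets of Insyn2a disagreed: of 3, 1 was called higher and 1 lower. Tspan2, Cxadr, Lin7c, Tdrd3, Lrpprc, Chil4, Myof and Slu7 had axis-adjusted changes of 1.19, 1.11, 0.77, 1.14, 1.27, 1.31, 1.49 and 1.13. Cxadr, Tdrd3, Chil4, Myof, Insyn2a, Slu7 and Drc3 had changes of 0.72, 1.32, 1.21, 1.17, 0.64, 1.47 and 1.11 with their probe sets averaged.

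The falls included genes of muscle and of platelets. Ly6d, a surface marker of squamous epithelium and early B cells, had levels of 6.65, 4.27, 5.90, 6.22 and 6.22 in the 10 ppm mice, against 8.45, 8.27, 8.84, 8.40 and 7.77 in the air mice. Its change was -2.49 ± 0.43 (SE, adjusted p = 6.9e-06), with 1 much lower mouse at 10 ppm. Gp1bb, a subunit of the platelet receptor for von Willebrand factor, had levels of 5.37, 5.33, 5.81, 6.43 and 5.83 in the 10 ppm mice, against 7.70, 7.84, 8.10, 8.31 and 8.14 in the air mice, with a change of -2.26 ± 0.32 (SE, adjusted p = 2.6e-07). Gp9, of the same receptor, had levels of 5.92, 6.05, 6.28, 6.87 and 6.22 in the 10 ppm mice, against 7.99, 8.06, 8.61, 8.14 and 8.19 in the air mice, with a change of -1.93 ± 0.21 (SE, adjusted p = 1.1e-09). That the groups of both receptor genes did not overlap was a condition of their selection. Ckm, the muscle creatine kinase, had levels of 4.18, 4.53, 5.42, 5.27 and 4.97 in the 10 ppm mice, against 9.29, 6.38, 7.26, 6.59 and 6.50 in the air mice, with a change of -2.33 ± 0.57 (SE, adjusted p = 0.0006). Its air mice were led by mouse 1, and the same mouse led for Mb, the muscle oxygen store myoglobin, at 11.16, and for Pgam2, a muscle glycolytic enzyme, at 8.93. The changes of Mb and Pgam2 were -2.29 ± 0.83 (SE, adjusted p = 0.0166) and -2.03 ± 0.55 (SE, adjusted p = 0.00179). The other 6 of the 12 largest falls lay between -2.02 and -1.91 log2: the kinase gene Sbk1, Armc6, 2410022M11Rik, Gtf2h4 (a subunit of the transcription and repair factor TFIIH), Pkdcc (a secreted tyrosine kinase of skeletal development) and Oxld1. With the axis adjusted for, the calls of Ly6d and Pkdcc were lost (adjusted p = 0.0561 and 0.0814). Ckm, Mb and Pgam2 then turned to 0.01, 0.20 and 0.36, none of them called. Sbk1, Armc6 and Gtf2h4 had axis-adjusted changes of -1.08, -0.79 and -1.24. Ckm and Mb had changes of -1.27 and -1.47 with their probe sets averaged.

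**Figure D3:**
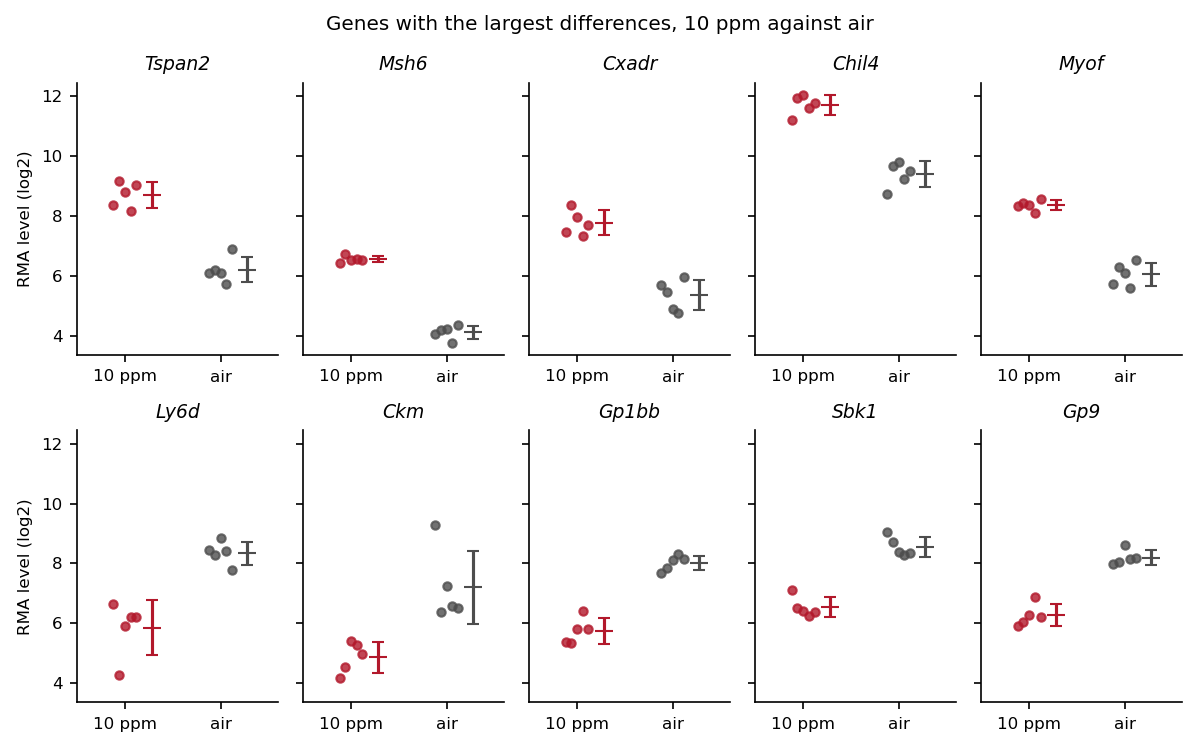
RMA level (log2) of 10 genes in each mouse, 10 ppm in red on the left of each panel and air in grey on the right; bars are the mean ± SD of 5 mice. The 10 were chosen from genes whose groups do not overlap, and air mouse 1 stands alone for Ckm.

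Gene lists for pathways and cell types were then read against the background of 66.4% called. Splicing factors, chaperones and alveolar macrophage markers had members called higher and none called lower, and antigen presentation genes had members called lower and none called higher. Most other lists held members in both directions, also within single protein complexes. So did all genes, with 29.0% higher and 37.4% lower. In the total share called, aldehyde and flavin oxidases (64.7%), interferon genes (63.0%), clock genes (66.7%), platelet genes (69.2%) and chaperones (70.6%) lay near the background. The balance of the background depended on dim genes: with those under 5 log2 left out, 85.0% of 10268 genes were called, 44.4% higher and 40.5% lower. Of the members then left, 12 of 17 chaperones and 19 of 20 splicing factors were called higher.

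**Figure D4:**
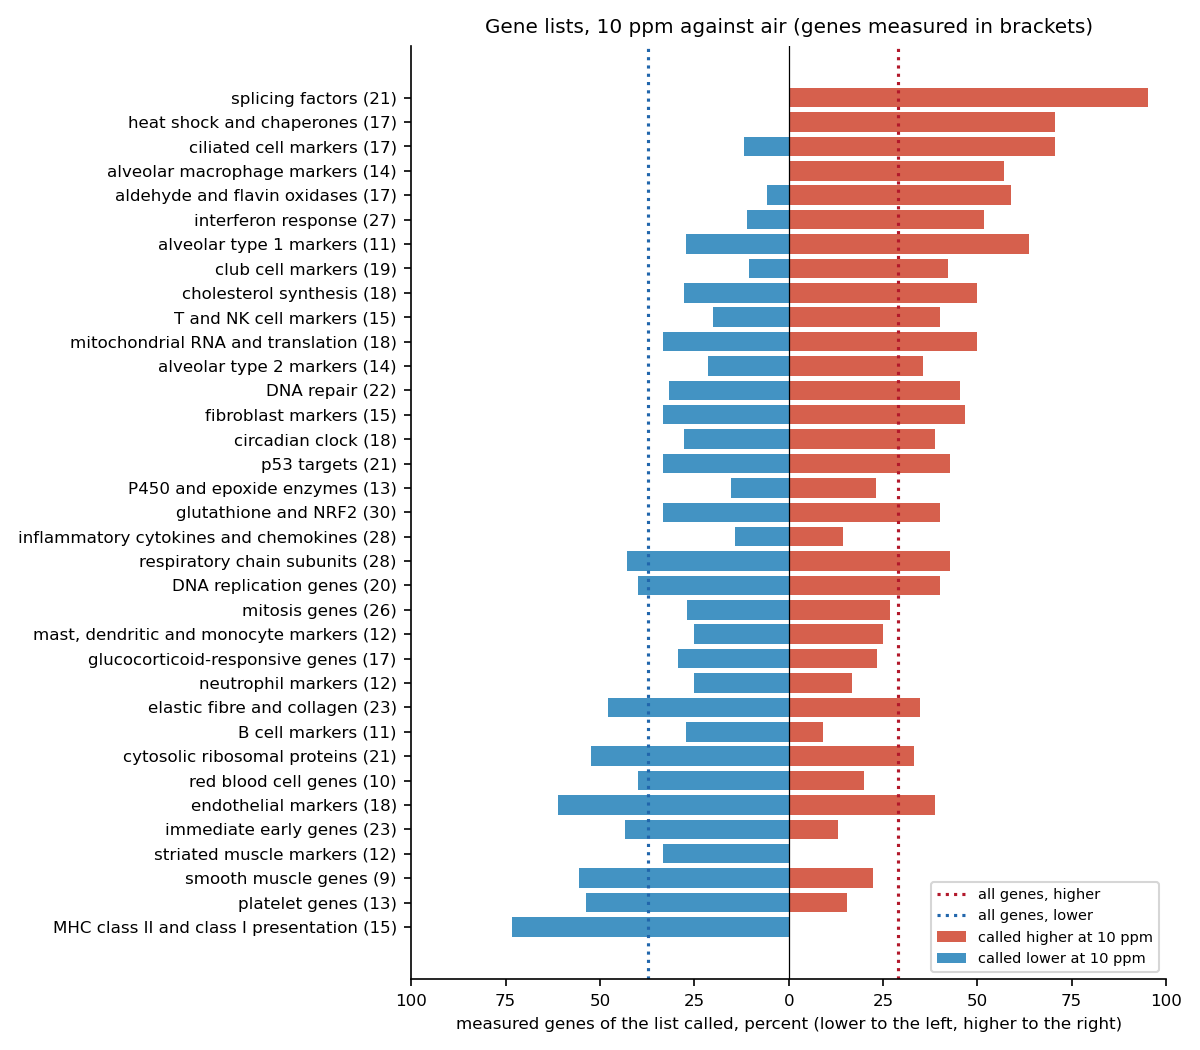
Share of the measured genes of 35 lists called higher (red, to the right) or lower (blue, to the left) at 10 ppm against air, in percent. Dotted lines mark all genes, 29.0% higher and 37.4% lower; splicing factors reach furthest to the right and antigen presentation to the left.

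P450 and epoxide genes had a smaller share called than all genes, 38.5% against 66.4%. Of the 13 measured 3 rose and 2 fell, with a median of 0.20. The count of rises was 5 without mouse 5 at 10 ppm or without air mouse 5, and that of falls 1 without any of 3 mice at 10 ppm (1, 2 and 4) or 3 in air (1, 2 and 3). Cyp2f2, the club cell styrene oxidase, had levels of 13.00, 13.03, 13.08, 13.10 and 13.04 in the 10 ppm mice, against 13.14, 12.95, 13.06, 13.10 and 13.07 in the air mice. The groups overlapped and the change was -0.01 ± 0.06 (SE, adjusted p = 0.854). Cyp2e1 had levels of 10.81, 6.78, 7.71, 8.76 and 6.20 in the 10 ppm mice, against 7.72, 5.81, 6.29, 7.56 and 6.55 in the air mice, with a change of 1.27 ± 0.74 (SE, adjusted p = 0.131). Its highest mouse at 10 ppm stood over 4 log2 above the lowest, so the groups overlapped widely. Cyp2b10, which the receptor CAR induces, had a change of 0.20 ± 0.12 (SE, adjusted p = 0.147). Leaving out 1 mouse made both of these called, Cyp2e1 without mouse 5 at 10 ppm (1.73, adjusted p = 0.0471) and Cyp2b10 without air mouse 5 (0.28, adjusted p = 0.0438). The epoxide hydrolase gene Ephx1 fell, with levels of 10.12, 9.95, 10.08, 10.13 and 10.13 in the 10 ppm mice, against 10.54, 10.57, 10.69, 10.67 and 10.48 in the air mice and a change of -0.51 ± 0.10 (SE, adjusted p = 2.2e-05). Cyp2j6, an epoxygenase, and Cyb5a, the electron donor cytochrome b5, rose by 1.59 ± 0.17 (SE, adjusted p = 7e-10) and 1.02 ± 0.11 (SE, adjusted p = 1.9e-09). Adjusted for the array axis, Cyp2e1 was called, at 4.58 (adjusted p = 0.00381), whereas Ephx1 lost its call (adjusted p = 0.309). Cyp2f2 and Cyp2b10 turned in sign after that adjustment, both uncalled. Cyp2j6 had a change of 1.06 with its probe sets averaged.

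In the list of aldehyde and flavin oxidases 10 of 17 measured genes rose and 1 fell, with a median of 0.57, and 2 fell without air mouse 2. Aldh1a7, a cytosolic aldehyde dehydrogenase, had levels of 10.56, 10.61, 10.76, 10.40 and 10.59 in the 10 ppm mice, against 8.59, 8.24, 8.87, 8.57 and 9.35 in the air mice, with a change of 1.86 ± 0.16 (SE, adjusted p = 1.8e-11). Aox3, an aldehyde oxidase, had levels of 9.36, 9.67, 9.86, 9.28 and 9.71 in the 10 ppm mice, against 7.63, 7.30, 7.72, 7.54 and 8.70 in the air mice, with a change of 1.80 ± 0.21 (SE, adjusted p = 4.6e-09). For both, air mouse 5 was the highest air mouse and still below the 10 ppm mice. Fmo1 (a flavin monooxygenase), Aldh3a2 (which oxidises fatty aldehydes) and Aldh1a1 (a retinal dehydrogenase) rose by 1.09, 1.45 and 1.04. On axis-adjusted values, 4 of the 17 were higher and 0 lower, and the calls of Aox3, Aldh3a2 and Aldh1a1 were lost (adjusted p = 0.0749, 0.137 and 0.106). Aldh1a7 and Fmo1 had axis-adjusted changes of 1.14 and 0.56.

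Glutathione and NRF2 genes held members in both directions, as all genes did (29.0% higher and 37.4% lower). Of 30 measured, 12 rose and 10 fell, with a median of 0.01. Nfe2l2, which encodes the transcription factor NRF2, had levels of 9.95, 9.99, 9.88, 9.75 and 9.66 in the 10 ppm mice, against 8.01, 7.98, 8.09, 7.80 and 8.53 in the air mice, with a change of 1.76 ± 0.14 (SE, adjusted p = 1.6e-12). Known NRF2 targets moved in both directions. Nqo1, a quinone reductase and NRF2 target, had levels of 6.10, 5.65, 6.08, 5.95 and 6.09 in the 10 ppm mice, against 4.34, 4.32, 4.87, 5.20 and 5.18 in the air mice, with a change of 1.19 ± 0.20 (SE, adjusted p = 2.9e-06). Gclc, the catalytic subunit that limits glutathione synthesis, had levels of 9.92, 10.01, 9.98, 10.09 and 9.37 in the 10 ppm mice, against 7.57, 8.34, 8.85, 8.93 and 9.26 in the air mice, with a change of 1.29 ± 0.21 (SE, adjusted p = 2.9e-06). Gsta4, a transferase for lipid aldehydes, the peroxidase Prdx1 and the exporter Abcc4 rose by 1.07, 1.16 and 1.78. Osgin1, another NRF2 target, fell, with levels of 6.68, 6.68, 6.62, 6.85 and 6.71 in the 10 ppm mice, against 8.32, 7.87, 7.94, 7.87 and 8.05 in the air mice and a change of -1.30 ± 0.11 (SE, adjusted p = 8.5e-12). Mgst3, a microsomal transferase, changed by -1.22. Hmox1, the haem oxygenase that oxidative stress induces, had levels of 6.92, 7.30, 6.66, 7.07 and 6.93 in the 10 ppm mice, against 6.87, 7.72, 7.41, 7.54 and 7.37 in the air mice, which overlap, and a change of -0.41 ± 0.22 (SE, adjusted p = 0.106). Without air mouse 1 the Hmox1 change was -0.53 and called (adjusted p = 0.0429). After the axis adjustment, 9 genes of the list were higher and 5 lower, and Gclc lost its call (adjusted p = 0.128). Nfe2l2, Osgin1 and Mgst3 had axis-adjusted changes of 1.08, -0.82 and -0.54. Nfe2l2 and Prdx1 had changes of 1.11 and 0.74 with their probe sets averaged.

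Airway epithelium was read from markers of club and ciliated cells. In whole lung, fewer cells of a type and less RNA per cell cannot be told apart. Of 19 measured club cell markers 8 rose and 2 fell, with a median of 0.12, and 1 fell when mouse 2 or 5 at 10 ppm or mouse 1, 4 or 5 in air was left out. Scgb1a1, the defining secretoglobin, had levels of 13.85, 13.86, 13.90, 13.78 and 13.86 in the 10 ppm mice, against 13.73, 13.68, 13.72, 13.73 and 13.83 in the air mice, with a change of 0.12 ± 0.05 (SE, adjusted p = 0.0469). This small rise lost its call without any single mouse other than mouse 4 at 10 ppm or mouse 5 in air, at an adjusted p of up to 0.103. Pon1 (paraoxonase), Cldn10 (a claudin of tight junctions) and Gabrp (a GABA receptor subunit) rose more, by 1.49, 1.20 and 1.79. The 2 club cell markers that fell are not named here. Among ciliated cell markers 12 of 17 rose and 2 fell, with a median of 0.84. Foxj1, the transcription factor that defines the motile ciliated cell, was one that fell, with levels of 7.89, 7.65, 6.86, 7.19 and 6.53 in the 10 ppm mice, against 9.05, 7.93, 8.19, 8.21 and 7.84 in the air mice. Its groups overlap, and the change was -1.02 ± 0.31 (SE, adjusted p = 0.00487). Tppp3, a tubulin-binding protein, fell by 0.85, while Mlf1, Cdhr3 (a cadherin of ciliated cells) and Ccdc40 (of the axonemal ruler) rose by 1.72, 1.57 and 1.47. After adjustment for the array axis, 3 club cell markers were higher and 0 lower, and 8 ciliated markers higher and 1 lower. Scgb1a1 and Foxj1 then turned to -0.01 and 0.15, uncalled. Tppp3 had an axis-adjusted change of -0.49.

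Alveolar markers also held members in both directions. Of 14 measured type 2 markers 5 rose and 3 fell, a median of -0.0026. Changes over these markers ran from -0.81 to 1.18. Among the 5 that rose, Cxcl15, the chemokine lungkine, and Scd1, the stearoyl-CoA desaturase of surfactant lipid synthesis, changed by 0.82 and 1.18. The 3 type 2 markers that fell are not named here. Of 11 type 1 markers 7 rose and 3 fell, with a median of 0.59 and changes from -1.17 to 1.78. Cav1, the coat protein of caveolae, had levels of 12.13, 12.30, 12.18, 11.99 and 12.22 in the 10 ppm mice, against 10.56, 10.55, 10.92, 10.83 and 11.30 in the air mice, with a change of 1.33 ± 0.10 (SE, adjusted p = 1.6e-12). Clic5, an intracellular chloride channel protein, changed by 1.78 ± 0.14 (SE, adjusted p = 1.8e-12), and all 4 of its probe sets were called higher. The 3 type 1 markers that fell are not named here. Of 14 alveolar macrophage markers 8 rose and none was called lower, a median of 0.75. Chil3, the chitinase-like protein of alveolar macrophages, had levels of 11.49, 12.02, 12.17, 11.73 and 11.93 in the 10 ppm mice, against 10.58, 10.93, 11.12, 10.24 and 10.81 in the air mice, with a change of 1.13 ± 0.16 (SE, adjusted p = 1.3e-07). Mrc1, the mannose receptor, had levels of 8.26, 8.83, 9.0, 7.88 and 8.51 in the 10 ppm mice, against 6.74, 7.09, 7.32, 6.78 and 7.20 in the air mice, with a change of 1.47 ± 0.26 (SE, adjusted p = 6.9e-06). The tetraspanin Cd9 and Plet1 rose by 1.14 and 1.16. The mean level of the macrophage markers was 9.02 to 9.47 at 10 ppm and 8.38 to 8.96 in air, without overlap. With the axis adjusted for, 1 type 2 marker was higher and 1 lower, 3 type 1 markers were higher and 1 lower, and 3 macrophage markers were higher and 0 lower. Scd1 and Chil3 lost their calls (adjusted p = 0.0523 and 0.19), and Mrc1 turned to -0.28, uncalled. Cxcl15, Cav1, Clic5 and Cd9 had axis-adjusted changes of 0.44, 0.78, 0.80 and 0.73.

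Chaperones rose. Of 17 measured genes 12 were higher and none was called lower, against 29.0% of all genes higher, and the median change was 0.99. Without mouse 2 or 4 at 10 ppm, or air mouse 1, 1 chaperone was called lower. Hspa5, the master chaperone of the endoplasmic reticulum (BiP), had levels of 10.95, 11.48, 11.31, 11.46 and 11.15 in the 10 ppm mice, against 8.71, 9.56, 9.58, 9.82 and 10.43 in the air mice, with a change of 1.65 ± 0.19 (SE, adjusted p = 5.7e-09). Dnajc3, its co-chaperone, had levels of 9.51, 9.96, 9.93, 9.92 and 9.53 in the 10 ppm mice, against 7.61, 8.24, 8.58, 8.73 and 9.13 in the air mice, with a change of 1.31 ± 0.20 (SE, adjusted p = 5.7e-07). All 5 probe sets of Dnajc3 were called higher. Pdia4, a protein disulfide isomerase, rose by 0.99, and Hspa4, a cytosolic nucleotide exchange factor, by 1.78. Adjusted for the array axis, 4 of the 17 were higher and 0 lower, and Hspa5 and Dnajc3 lost their calls, at 0.51 (adjusted p = 0.151) and 0.10 (adjusted p = 0.828). Hspa4 had an axis-adjusted change of 0.98.

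The endoplasmic reticulum stress element, to which the unfolded protein response factor ATF6 binds, was searched in promoters as CCAAT, 9 bases of any kind and CCACG on both strands. RefSeq promoters of build GRCm38.p6 were used, 250 bases before to 50 after each start, of which 15 chaperone genes had one. The motif occurred in 0.119% of 32851 promoters and in those of 4 of the 15 genes, Hspa5, Hsp90b1, Dnajc3 and Calr. Their 250 bases before the start are shown because they hold the element in 3 genes that rose and in 1 that was not called, with the match in capitals.
Hspa5, chr2:34771840-34772089, plus strand: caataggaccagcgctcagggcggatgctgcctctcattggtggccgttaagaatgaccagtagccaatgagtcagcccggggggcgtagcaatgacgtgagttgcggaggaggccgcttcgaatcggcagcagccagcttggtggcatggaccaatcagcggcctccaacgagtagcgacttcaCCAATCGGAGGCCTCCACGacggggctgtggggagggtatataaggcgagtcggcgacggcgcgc
Hsp90b1, chr10:86705445-86705694, minus strand: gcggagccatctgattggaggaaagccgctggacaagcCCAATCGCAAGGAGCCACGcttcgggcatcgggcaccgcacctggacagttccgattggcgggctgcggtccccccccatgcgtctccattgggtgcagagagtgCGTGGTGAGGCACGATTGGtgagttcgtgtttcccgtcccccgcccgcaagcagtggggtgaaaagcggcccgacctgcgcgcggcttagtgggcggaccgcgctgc
Dnajc3, chr14:118937682-118937931, plus strand: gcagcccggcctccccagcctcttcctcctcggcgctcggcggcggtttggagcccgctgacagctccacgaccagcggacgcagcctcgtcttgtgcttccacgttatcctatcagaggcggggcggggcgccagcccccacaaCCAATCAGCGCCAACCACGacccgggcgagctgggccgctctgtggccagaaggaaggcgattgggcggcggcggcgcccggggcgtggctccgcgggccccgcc
Calr, chr8:84846932-84847181, minus strand: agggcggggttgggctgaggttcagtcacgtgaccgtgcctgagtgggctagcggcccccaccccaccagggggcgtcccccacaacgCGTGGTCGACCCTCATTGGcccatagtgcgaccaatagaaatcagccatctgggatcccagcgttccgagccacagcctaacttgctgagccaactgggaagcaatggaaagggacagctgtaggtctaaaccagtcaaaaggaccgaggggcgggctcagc
In Hspa5 the match begins 65 bases before the start and in Dnajc3 105 bases before it. Hsp90b1, the chaperone GRP94, holds 2 matches and rose by 1.22 ± 0.21 (SE, adjusted p = 4.3e-06), a gene named for its motif after its values were seen. Calr, the lectin chaperone calreticulin, holds 1 match and had levels of 11.57, 11.62, 11.60, 11.91 and 11.72 in the 10 ppm mice, against 11.30, 11.53, 11.53, 11.63 and 11.78 in the air mice, which overlap, with a change of 0.13 ± 0.08 (SE, adjusted p = 0.143). A heat shock element, searched as GAA, TTC and GAA with 2 bases of any kind between them, was in the promoters of 2 of the 15 genes and in 0.603% of all promoters. A match describes the letters only.

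Splicing factors had the highest share of members called higher among the 35 lists, 20 of 21, with a median of 1.21. Srsf3, a serine-arginine-rich factor, had levels of 10.10, 10.12, 10.06, 9.91 and 9.94 in the 10 ppm mice, against 8.28, 8.33, 8.43, 8.48 and 8.77 in the air mice, with a change of 1.57 ± 0.10 (SE, adjusted p = 2.6e-14). All 6 of its probe sets were called higher. Hnrnpk, an RNA-binding protein of pre-mRNA processing, had levels of 10.70, 10.75, 10.75, 10.67 and 10.69 in the 10 ppm mice, against 9.10, 9.21, 9.44, 9.21 and 9.70 in the air mice, with a change of 1.38 ± 0.09 (SE, adjusted p = 7.1e-14). Slu7, of the second splicing step, and Srsf10 rose by 2.29 and 1.82. Hnrnpd, the remaining member, was not called, at -0.24 ± 0.14 (SE, adjusted p = 0.127), and is named as the exception after its value was seen. On axis-adjusted values, 8 of the 21 were higher and 2 lower, with a median of 0.26. Hnrnpk and Srsf10 had axis-adjusted changes of 0.86 and 0.99.

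Interferon-induced genes rose in part, while antigen presentation genes fell. Of 27 measured interferon response genes 14 rose and 3 fell, with a median of 0.73. Tgtp1, an interferon-induced GTPase, had levels of 8.82, 9.09, 9.44, 8.56 and 8.67 in the 10 ppm mice, against 6.55, 6.20, 6.19, 7.33 and 7.14 in the air mice, with a change of 2.23 ± 0.37 (SE, adjusted p = 3.5e-06). Ifit1, which binds foreign capped RNA, had levels of 5.96, 6.84, 6.40, 6.28 and 6.66 in the 10 ppm mice, against 3.99, 4.52, 4.53, 4.43 and 5.54 in the air mice, with a change of 1.83 ± 0.26 (SE, adjusted p = 1.9e-07). Irgm1, a GTPase of macrophage defence, the RNA sensor Ddx58 (RIG-I) and Oasl2 rose by 1.58, 1.25 and 1.61. Among the 3 that fell were Oasl1 and the interferon regulatory factor gene Irf7. Their changes were -0.77 (adjusted p = 1.9e-05) and -0.93 (adjusted p = 4.6e-05), and both are named after their values were seen. For Ifit1, air mouse 5 was the highest in air and still below the 10 ppm mice. Of 15 genes of MHC class II and class I presentation 11 fell and none was called higher, a median of -0.86, but 1 was called higher without mouse 4 at 10 ppm or without air mouse 2 or 5. H2-DMa, 1 chain of the complex that loads peptides onto class II molecules, had levels of 8.50, 7.86, 8.34, 8.33 and 8.41 in the 10 ppm mice, against 9.85, 9.50, 9.74, 9.69 and 9.48 in the air mice, with a change of -1.37 ± 0.15 (SE, adjusted p = 2.9e-09). Its partner H2-DMb1 changed by -1.45 ± 0.16 (SE, adjusted p = 2.7e-09), and the immunoproteasome subunit gene Psmb10 by -1.05 ± 0.11 (SE, adjusted p = 1.2e-09). After the axis adjustment, 4 interferon genes were higher and 1 lower, and 5 presentation genes were lower and 0 higher. Ifit1 then lost its call (adjusted p = 0.425). Ddx58, Psmb10, H2-DMb1 and H2-DMa had axis-adjusted changes of 0.67, -0.56, -0.89 and -0.83. Ddx58 had a change of 0.61 with its probe sets averaged.

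The interferon-stimulated response element, the site of the interferon-activated ISGF3 complex, was searched as GAAA, 2 bases of any kind and GAAA on both strands. It was in the promoters of 14 of 19 interferon list genes that had one and in 3.44% of all promoters. Of the 14, 9 rose and none was called lower, while Stat2, Ifih1, Cxcl10, Igtp and Gbp7 were not called. Promoters of 3 genes that rose are shown, 250 bases before the start with matches in capitals (on the opposite strand GAAA reads TTTC).
Ifit1, chr19:34640639-34640888, plus strand: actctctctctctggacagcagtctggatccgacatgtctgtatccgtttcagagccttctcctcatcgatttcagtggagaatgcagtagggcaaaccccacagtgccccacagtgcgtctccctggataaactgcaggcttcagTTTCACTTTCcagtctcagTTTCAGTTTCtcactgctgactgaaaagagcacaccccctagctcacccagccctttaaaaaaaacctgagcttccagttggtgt
Tgtp1, chr11:48992247-48992496, minus strand: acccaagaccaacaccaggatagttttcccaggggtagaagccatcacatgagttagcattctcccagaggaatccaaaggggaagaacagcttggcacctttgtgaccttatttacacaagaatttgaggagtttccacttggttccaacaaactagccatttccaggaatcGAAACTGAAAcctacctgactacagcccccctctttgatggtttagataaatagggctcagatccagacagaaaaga
Irgm1, chr11:48871421-48871670, minus strand: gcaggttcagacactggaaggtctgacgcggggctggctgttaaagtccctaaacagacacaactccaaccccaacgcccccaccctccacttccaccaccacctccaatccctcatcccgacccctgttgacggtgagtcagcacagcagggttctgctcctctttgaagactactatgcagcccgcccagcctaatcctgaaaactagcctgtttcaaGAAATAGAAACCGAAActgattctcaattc
Ifit1 holds 2 matches 104 and 85 bases before the start, Tgtp1 holds 1 at 77 bases, and Irgm1 holds 2 that overlap and begin 30 and 24 bases before it.

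Of 18 clock genes 7 were called higher and 5 lower, a share of 66.7% against 66.4% of all genes, and 3 were lower without air mouse 1 or 4. Arntl (BMAL1), the activator of the clock, had levels of 6.76, 6.98, 6.73, 6.50 and 6.08 in the 10 ppm mice, against 5.58, 5.63, 5.01, 4.77 and 5.66 in the air mice, with a change of 1.28 ± 0.40 (SE, adjusted p = 0.00583). Its partner Clock and the activator Rora rose by 1.23 and 2.24. Of the repressors, Nr1d2 had levels of 8.23, 8.42, 9.18, 9.01 and 9.61 in the 10 ppm mice, against 6.32, 6.73, 7.47, 7.74 and 7.93 in the air mice, with a change of 1.65 ± 0.43 (SE, adjusted p = 0.00104), while Per1 and Cry2 fell by 1.20 and 0.68. Dbp, an output gene with a strong daily rhythm, had levels of 5.40, 4.27, 5.27, 6.96 and 7.69 in the 10 ppm mice, against 5.23, 5.75, 7.79, 8.51 and 7.23 in the air mice, with a change of -0.98 ± 0.85 (SE, adjusted p = 0.308). Dbp ranged over more than 3 log2 within each group and Nr1d2 over more than 1 log2, so mice of one group differed widely for these 2 genes. The E-box CACGTG, the site of CLOCK and BMAL1, was in the promoters of 5 of 16 clock genes, of which 1 rose and 3 fell, and in 7.15% of all promoters. After adjustment for the array axis, 0 clock genes were higher and 1 lower. Rora, Clock, Arntl and Per1 lost their calls (adjusted p = 0.0787, 0.836, 0.0533 and 0.5), and Nr1d2 turned to -0.65, uncalled. Arntl had a change of 1.96 against 1 ppm. Rora and Arntl had changes of 0.71 and 0.56 with their probe sets averaged.

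Of 23 immediate early genes 10 fell and 3 rose, with a median of -0.31, and 12 fell and 1 rose without mouse 1 at 10 ppm. The share called was 56.5%, against 66.4% of all genes, of which 29.0% were higher and 37.4% lower. Junb, an AP-1 subunit, had levels of 7.26, 6.67, 6.19, 6.79 and 7.02 in the 10 ppm mice, against 9.18, 8.40, 7.95, 8.45 and 8.55 in the air mice, with a change of -1.72 ± 0.18 (SE, adjusted p = 5.9e-10). Ier2 and Jund, another AP-1 subunit, changed by -1.23 ± 0.13 (SE, adjusted p = 6.3e-10) and -1.03 ± 0.12 (SE, adjusted p = 2.1e-09), without overlap. Among all genes, 49.2% had no overlap between the groups. With the axis adjusted for, 4 were lower and 1 higher. Of 17 glucocorticoid-responsive genes, Per1 among them, 4 rose and 5 fell, and after that adjustment none was called. Ier2 and Jund had axis-adjusted changes of -0.70 and -0.55.

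Matrix genes held members in both directions. Of 23 measured elastic fibre and collagen genes 8 rose and 11 fell, with a median of -0.15. Of all genes 29.0% were higher and 37.4% lower. Emilin1, which joins elastin to cells, had levels of 7.50, 7.38, 7.55, 7.31 and 7.62 in the 10 ppm mice, against 9.53, 9.31, 8.97, 8.75 and 8.68 in the air mice, with a change of -1.57 ± 0.14 (SE, adjusted p = 1.1e-11). Eln, the elastin gene, had levels of 8.67, 9.13, 9.15, 8.92 and 9.37 in the 10 ppm mice, against 10.61, 10.11, 9.61, 9.91 and 9.99 in the air mice, with a change of -1.0 ± 0.21 (SE, adjusted p = 0.00011). Ltbp4, which guides elastic fibre assembly, fell by 1.14. In the opposite direction, Fn1 (fibronectin) had levels of 10.88, 10.56, 10.47, 10.74 and 10.44 in the 10 ppm mice, against 8.96, 9.32, 9.25, 9.64 and 9.38 in the air mice, with a change of 1.31 ± 0.14 (SE, adjusted p = 8e-10). Of 15 fibroblast markers 7 rose and 5 fell, with changes from -1.07 to 1.82. Among the 7 that rose, the integrin ligand Npnt and the dermatopontin gene Dpt changed by 1.82 and 1.37. The 5 fibroblast markers that fell are not named here. Adjusted for the array axis, 5 matrix genes were higher and 2 lower, and 5 fibroblast markers higher and 1 lower. Eln then lost its call (adjusted p = 0.227). Ltbp4 and Npnt had axis-adjusted changes of -0.59 and 1.13. Npnt had a change of 0.71 with its probe sets averaged.

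All 18 measured endothelial markers were called, 7 higher and 11 lower. Pecam1, the endothelial junction protein CD31, had levels of 10.34, 10.52, 10.47, 10.64 and 10.76 in the 10 ppm mice, against 8.06, 9.25, 9.14, 9.29 and 9.85 in the air mice, with a change of 1.43 ± 0.17 (SE, adjusted p = 6.2e-09). Tek, the angiopoietin receptor TIE2, and Emcn, a sialomucin, rose by 1.75 and 1.48. Egfl7, a secreted endothelial factor, fell, with levels of 10.13, 10.46, 10.09, 10.70 and 10.51 in the 10 ppm mice, against 11.21, 11.42, 11.17, 11.20 and 11.21 in the air mice and a change of -0.86 ± 0.11 (SE, adjusted p = 1.2e-08). On axis-adjusted values, 3 were higher and 4 lower. Of 9 smooth muscle genes 2 rose and 5 fell. Cnn1 (calponin) and Des (desmin) fell by 1.68 and 1.13, whereas Mylk, the myosin light chain kinase, rose by 0.87. Myh11, smooth muscle myosin, changed by 1.48 ± 0.23 (SE, adjusted p = 1.1e-06) on its brightest probe set, while its other probe set was called lower. Air mouse 1 was the highest for Cnn1, at 10.07 against 8.33 to 8.50 in the other air mice, and for Des, at 10.26 against 8.47 to 9.05. After the adjustment Cnn1 turned to 0.04 and Des to -0.0016 (adjusted p = 0.999), both uncalled, and 2 smooth muscle genes were higher and 0 lower. Tek, Pecam1 and Mylk had axis-adjusted changes of 0.71, 0.78 and 0.46. Myh11 and Des had changes of 0.51 and -0.73 with their probe sets averaged.

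Of 12 measured striated muscle markers 4 fell, or 33.3% against 37.4% of all genes, and none was called higher. Their mean level was 5.67 to 6.46 at 10 ppm and 6.14 to 8.38 in air, which overlap. Their part in the smooth muscle result was not tested. After the axis adjustment, none of the 12 was called.

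Blood cell lists were mixed. Of 13 platelet genes 2 rose and 7 fell, with a median of -0.33, and 1 rose without air mouse 1. Itga2b, the platelet integrin chain, had levels of 5.05, 5.18, 5.47, 6.01 and 6.02 in the 10 ppm mice, against 7.33, 7.51, 7.54, 7.43 and 7.40 in the air mice, with a change of -1.90 ± 0.19 (SE, adjusted p = 1.8e-10). Gp5 fell by 1.28, in the same direction as Gp1bb and Gp9 above. Clec1b, a platelet receptor for podoplanin, rose, with levels of 6.43, 6.54, 7.13, 7.45 and 7.11 in the 10 ppm mice, against 5.14, 5.21, 5.89, 5.52 and 6.03 in the air mice and a change of 1.37 ± 0.27 (SE, adjusted p = 4.5e-05). After adjustment for the array axis, 6 platelet genes were lower and 0 higher, and the Clec1b call was lost (adjusted p = 0.167). Of 10 red blood cell genes 2 rose and 4 fell; Bpgm, the diphosphoglycerate enzyme, rose by 1.16, and the anion exchanger gene Slc4a1 fell by 1.45, a call lost after the adjustment (adjusted p = 0.523). B cell markers rose in 1 and fell in 3 of 11, T and NK cell markers rose in 6 and fell in 3 of 15 (3 and 4 without air mouse 1), neutrophil markers rose in 2 and fell in 3 of 12 (1 and 4 without mouse 5 at 10 ppm), and mast, dendritic and monocyte markers rose in 3 and fell in 3 of 12. Among these markers 4 B cell, 8 T and NK cell, 2 neutrophil and 6 mast, dendritic and monocyte ones lay under 5 log2. In the same order the shares called were 36.4%, 60%, 41.7% and 50%, against 66.4% of all genes. Of 28 inflammatory cytokine and chemokine genes 4 rose and 4 fell, a smaller share than the background, and 14 of the 28 were under 5 log2. With the axis adjusted for, the B cell, T and NK cell and neutrophil lists held no called gene, 2 mast, dendritic and monocyte markers were higher, and 2 cytokine genes were higher. Slc4a1 had a change of -0.75 with its probe sets averaged.

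Proliferation genes held members in both directions, as all genes did (29.0% higher and 37.4% lower). Of 20 DNA replication genes 8 rose and 8 fell, and of 26 mitosis genes 7 rose and 7 fell. Most mitosis genes were dim: 19 of the 26 lay under 5 log2, and of the other 7, tested with dim genes left out, 1 rose and 3 fell. Over all settings other than the array axis adjustment 1 to 8 mitosis genes were higher and 3 to 8 lower. Mki67, the usual proliferation marker, had levels of 3.81, 4.23, 4.39, 3.80 and 4.07 in the 10 ppm mice, against 3.81, 3.61, 4.05, 3.65 and 3.82 in the air mice, with a change of 0.28 ± 0.15 (SE, adjusted p = 0.116). Top2a, the topoisomerase of dividing cells, rose by 1.18 ± 0.16 (SE, adjusted p = 9.5e-08) and Cenpa, the centromeric histone, fell by 1.25 (SE 0.12). Within the replicative helicase the subunits parted. Mcm4 had levels of 7.03, 7.07, 7.14, 7.21 and 7.25 in the 10 ppm mice, against 4.36, 4.92, 5.12, 5.23 and 5.47 in the air mice, with a change of 2.12 ± 0.16 (SE, adjusted p = 1.1e-12). Mcm2 had levels of 6.35, 5.83, 5.87, 6.33 and 5.90 in the 10 ppm mice, against 7.20, 7.64, 7.55, 7.78 and 7.42 in the air mice, with a change of -1.46 ± 0.16 (SE, adjusted p = 1.8e-09). The polymerase clamp gene Pcna and Rrm1, of deoxynucleotide synthesis, rose by 0.89 and 1.67. Adjusted for the array axis, 4 replication genes were higher and 2 lower, 3 mitosis genes higher and 2 lower, and Mki67 turned to -0.41, uncalled. Top2a had a change of 0.73 against 1 ppm. Cenpa, Mcm4, Rrm1 and Mcm2 had axis-adjusted changes of -0.68, 1.31, 0.85 and -0.83. Top2a had a change of 0.26 with its probe sets averaged.

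Targets of p53 also held members in both directions, 9 of 21 higher and 7 lower, with a median of 0.02. The share called was 76.2%, against 66.4% of all genes and 85.0% of genes with those under 5 log2 left out. Only 2 of the 21 targets lay under 5 log2. Mdm2, a p53 target that degrades p53, had levels of 7.58, 7.81, 7.70, 7.44 and 7.67 in the 10 ppm mice, against 5.72, 5.67, 5.83, 5.75 and 6.24 in the air mice, with a change of 1.80 ± 0.12 (SE, adjusted p = 7.1e-14). Cdkn1a (p21), which halts the cell cycle, had levels of 8.80, 9.03, 9.74, 8.91 and 9.23 in the 10 ppm mice, against 9.87, 10.22, 9.51, 9.75 and 9.95 in the air mice, which overlap, with a change of -0.72 ± 0.31 (SE, adjusted p = 0.0415). That call was lost when any single mouse other than mouse 3 of either group was left out, at an adjusted p of 0.0508 to 0.0956. The pro-apoptotic gene Bbc3 (PUMA), Phlda3 and Gadd45b, also induced by p53 or stress, fell by 1.29, 1.5 and 1.25. Of 22 DNA repair genes 10 rose and 7 fell. Msh6 above and Pms2, both of mismatch repair, rose, Pms2 by 1.23, and Ercc1, of nucleotide excision repair, had levels of 8.15, 7.96, 7.91, 8.24 and 8.06 in the 10 ppm mice, against 9.45, 9.43, 9.42, 9.38 and 9.12 in the air mice, with a change of -1.30 ± 0.13 (SE, adjusted p = 1.1e-10). All 4 probe sets of Ercc1 were called lower. On axis-adjusted values, 2 p53 targets were higher and 3 lower, and 2 repair genes higher and 3 lower. Cdkn1a then changed by -0.15 (adjusted p = 0.883). Mdm2, Phlda3, Bbc3 and Ercc1 had axis-adjusted changes of 1.05, -0.83, -0.70 and -0.74. Ercc1 and Pms2 had changes of -0.85 and 0.33 with their probe sets averaged.

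**Figure D5:**
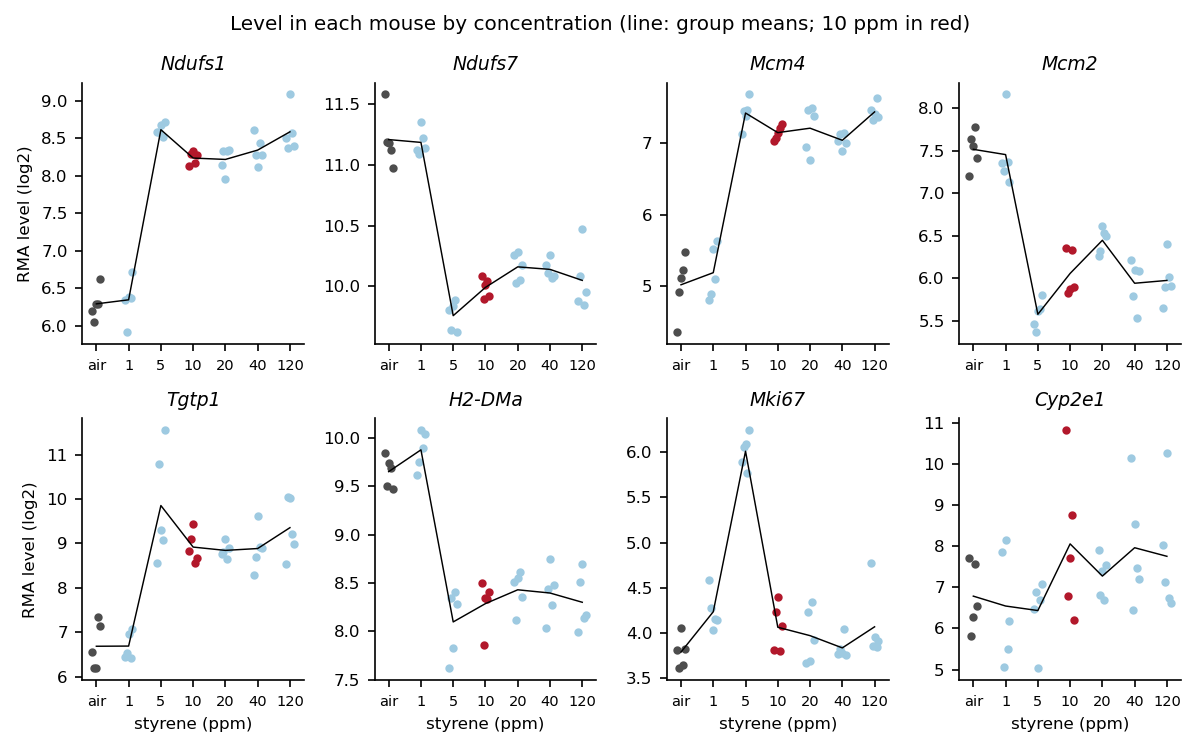
RMA level (log2) of 8 genes in every mouse of the 7 groups, from air at the left through 1, 5, 10, 20, 40 and 120 ppm; the line joins group means and 10 ppm is in red. Ndufs1 and Mcm4 are higher and Ndufs7 and Mcm2 lower at 10 ppm than in air, and Mki67 is high at 5 ppm but not at 10 ppm.

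Across the 7 groups the profiles of single genes differed. Group means of Mcm4 were 5.02 ± 0.42 in air, 5.19 ± 0.37 at 1 ppm, 7.41 ± 0.20 at 5 ppm, 7.14 ± 0.09 at 10 ppm, 7.20 ± 0.33 at 20 ppm, 7.03 ± 0.10 at 40 ppm and 7.43 ± 0.12 at 120 ppm (SD, n = 5 each). For Mcm2 they were 7.52 ± 0.22 in air, 7.45 ± 0.41 at 1 ppm, 5.58 ± 0.17 at 5 ppm, 6.06 ± 0.26 at 10 ppm, 6.45 ± 0.15 at 20 ppm, 5.94 ± 0.28 at 40 ppm and 5.97 ± 0.28 at 120 ppm (SD, n = 5 each). For both helicase genes the 1 ppm mean lay on the side of air and the means from 5 to 120 ppm on the side of 10 ppm. Ndufs1 of complex I averaged 6.29 ± 0.21 in air, 6.35 ± 0.29 at 1 ppm, 8.62 ± 0.08 at 5 ppm, 8.24 ± 0.08 at 10 ppm, 8.22 ± 0.17 at 20 ppm, 8.34 ± 0.19 at 40 ppm and 8.59 ± 0.29 at 120 ppm (SD, n = 5 each). Tgtp1 averaged 6.68 ± 0.53 in air, 6.69 ± 0.30 at 1 ppm, 9.85 ± 1.26 at 5 ppm, 8.92 ± 0.36 at 10 ppm, 8.84 ± 0.17 at 20 ppm, 8.88 ± 0.48 at 40 ppm and 9.35 ± 0.66 at 120 ppm (SD, n = 5 each), with its highest mean at 5 ppm. Mki67 averaged 3.79 ± 0.18 in air, 4.23 ± 0.21 at 1 ppm, 6.01 ± 0.18 at 5 ppm, 4.06 ± 0.26 at 10 ppm, 3.97 ± 0.31 at 20 ppm, 3.83 ± 0.12 at 40 ppm and 4.07 ± 0.40 at 120 ppm (SD, n = 5 each), and of these groups only 5 ppm had a mean above 5 log2. Cyp2e1 averaged 6.78 ± 0.83 in air, 6.54 ± 1.39 at 1 ppm, 6.43 ± 0.81 at 5 ppm, 8.05 ± 1.82 at 10 ppm, 7.27 ± 0.51 at 20 ppm, 7.96 ± 1.43 at 40 ppm and 7.75 ± 1.5 at 120 ppm (SD, n = 5 each), with a wide spread in most groups. These means share the same air mice wherever they are set against air, and no trend over concentration was tested.

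Metabolic and organelle genes held members in both directions. Of 18 cholesterol synthesis genes 9 rose and 5 fell, with a median of 0.49. Msmo1, a sterol methyl oxidase, had levels of 8.77, 8.84, 8.34, 7.99 and 8.38 in the 10 ppm mice, against 6.30, 6.22, 6.21, 6.58 and 6.85 in the air mice, with a change of 2.03 ± 0.17 (SE, adjusted p = 7.8e-12), although its other probe set was called lower. Cyp51, the sterol demethylase, and Stard4, a sterol transporter, rose by 1.80 and 1.70. Mvk, mevalonate kinase, fell, with levels of 6.08, 5.98, 5.94, 6.19 and 6.14 in the 10 ppm mice, against 7.90, 7.44, 7.42, 7.15 and 6.66 in the air mice and a change of -1.25 ± 0.16 (SE, adjusted p = 3.9e-08). A sterol element, searched as TCAC, 1 base of any kind and CCAC, was in the promoter of 1 of 14 of these genes and in 1.24% of all promoters. After the axis adjustment, 6 were higher and 0 lower, and Mvk lost its call (adjusted p = 0.0994). Of 28 respiratory chain genes 12 rose and 12 fell. Within complex I, Ndufs1 had levels of 8.13, 8.29, 8.33, 8.17 and 8.28 in the 10 ppm mice, against 6.20, 6.06, 6.30, 6.29 and 6.62 in the air mice, with a change of 1.94 ± 0.13 (SE, adjusted p = 6.6e-14). Ndufs7, of the same complex, had levels of 10.08, 9.90, 10.01, 10.04 and 9.92 in the 10 ppm mice, against 11.58, 11.19, 11.18, 11.12 and 10.97 in the air mice, with a change of -1.22 ± 0.10 (SE, adjusted p = 5.5e-12). The complex II flavoprotein gene Sdha rose by 1.5, with 2 of its 4 probe sets called higher and 1 lower. Of 18 genes of mitochondrial RNA and translation 9 rose and 6 fell; Lrpprc rose by 2.35, while Polrmt, the mitochondrial RNA polymerase, and Mrpl12 fell by 1.51 and 1.43. Of 21 cytosolic ribosomal proteins 7 rose and 11 fell. Rpl4 had levels of 12.02, 12.22, 12.18, 12.07 and 12.23 in the 10 ppm mice, against 10.15, 10.31, 10.50, 10.60 and 11.12 in the air mice, with a change of 1.61 ± 0.12 (SE, adjusted p = 7.4e-13). Rpl7 rose by 1.49 and Rpl8 fell by 0.62. After adjustment for the array axis, the counts were 10 higher and 2 lower for the respiratory chain, 9 higher and 3 lower for mitochondrial RNA and translation, and 4 higher and 4 lower for ribosomal proteins. Stard4, Rpl7, Rpl4, Rpl8, Ndufs7, Polrmt and Mrpl12 had axis-adjusted changes of 0.88, 0.97, 0.98, -0.30, -0.63, -0.64 and -0.62. Msmo1, Cyp51 and Sdha had changes of 0.89, 0.89 and 0.78 with their probe sets averaged.

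Against the next lower concentration, no air mouse enters the difference. Between 10 and 5 ppm 4658 genes (27.2%) were called, 17.4% of all genes higher and 9.86% lower at 10 ppm, and the groups did not overlap for 3406. The array axis scores were -0.79 to -0.08 at 10 ppm and -1.41 to -1.04 at 5 ppm, again without overlap, and after adjustment for the axis 450 genes (2.63%) were called, 254 higher and 196 lower. Among the largest falls at 10 ppm were Trim12c, a tripartite motif gene, and Ankrd12, an ankyrin repeat gene. Trim12c had levels of 6.88, 6.62, 3.28, 6.06 and 6.77 at 10 ppm, against 8.51, 8.96, 8.83, 8.50 and 9.03 at 5 ppm, with a change of -2.84 ± 0.64 (SE, adjusted p = 0.00152). Ankrd12 had levels of 5.24, 6.63, 6.43, 5.15 and 5.54 at 10 ppm, against 8.37, 8.41, 8.17, 7.42 and 8.51 at 5 ppm, with a change of -2.38 ± 0.29 (SE, adjusted p = 2.5e-06). In both, the groups did not overlap, which was a condition of their selection. Mki67 had levels of 3.81, 4.23, 4.39, 3.80 and 4.07 at 10 ppm, against 5.89, 6.06, 6.09, 5.77 and 6.25 at 5 ppm, with a change of -1.95 ± 0.15 (SE, adjusted p = 8.3e-10). Top2a was lower too, with a change of -0.92 ± 0.16 (SE, adjusted p = 0.00014), and 6 of 26 mitosis genes fell and none rose. With dim genes left out 2 of 9 fell and 1 rose, and 1 rose without mouse 2 or 3 at 10 ppm or mouse 4 at 5 ppm. Interferon genes fell in 12 of 27 and rose in none, with a median of -0.63. Without mouse 5 at 5 ppm 7 fell and 2 rose, and the median was -0.29. Iigp1, an immunity-related GTPase, had levels of 6.48, 6.15, 6.95, 6.23 and 7.04 at 10 ppm, against 8.13, 9.59, 7.82, 8.14 and 10.96 at 5 ppm, with a change of -2.36 ± 0.39 (SE, adjusted p = 9.5e-05), and its 2 highest mice at 5 ppm were mice 2 and 5. The same 2 mice led for the guanylate-binding proteins Gbp7 and Gbp3, whose changes were -2.04 ± 0.35 (SE, adjusted p = 0.00013) and -1.63 ± 0.33 (SE, adjusted p = 0.00053). The monocyte chemokine receptor gene Ccr2 changed by -1.70 ± 0.36 (SE, adjusted p = 0.0009). Trim12c, Ankrd12, Top2a and Ccr2 had changes of -1.83, -1.41, -0.24 and -1.13 with their probe sets averaged.

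Splicing factors, which were above air at 10 ppm, were lower at 10 than at 5 ppm in 15 of 21 members, with none higher. Rbm25 had levels of 7.24, 8.51, 8.54, 7.49 and 7.76 at 10 ppm, against 9.57, 9.60, 9.50, 9.01 and 9.54 at 5 ppm, with a change of -1.54 ± 0.29 (SE, adjusted p = 0.00027), and U2surp changed by -1.25 ± 0.25 (SE, adjusted p = 0.00051). Chaperones fell in 5 of 17, among them Hsp90aa1, the inducible cytosolic HSP90, with a change of -1.31 ± 0.34 (SE, adjusted p = 0.00432). Ciliated markers fell in 5 of 17, with Ccdc39, partner of Ccdc40, at -2.04 ± 0.27 (SE, adjusted p = 6.4e-06) and Rsph4a, of the radial spoke, at -1.30 ± 0.24 (SE, adjusted p = 0.00025). Ogn (osteoglycin), the repair gene Nbn and Mrc1 were also lower at 10 ppm, with changes of -1.64 ± 0.27 (SE, adjusted p = 7.8e-05), -1.24 ± 0.23 (SE, adjusted p = 0.00027) and -1.03 ± 0.26 (SE, adjusted p = 0.00342). In the other direction, endothelial markers rose in 11 of 18 and fell in none. Plvap, of endothelial fenestrae, had levels of 11.16, 11.24, 10.86, 11.08 and 11.01 at 10 ppm, against 10.36, 10.15, 10.39, 10.59 and 10.25 at 5 ppm, with a change of 0.72 ± 0.12 (SE, adjusted p = 5.6e-05), and the receptor gene Tie1 changed by 0.65 ± 0.11 (SE, adjusted p = 0.00012). Elastic fibre and collagen genes rose in 8 of 23 and fell in none. Among the largest rises were Tmem88 (a Wnt inhibitor), Ccn5 (a matricellular protein), Dhcr7 (the last step of cholesterol synthesis), Ltbp2 (of elastic fibres), Hoxb5 and Ptk7, between 0.96 and 1.03. Cholesterol synthesis genes rose in 7 of 18 and fell in none, Mvk by 0.82 ± 0.16 (SE, adjusted p = 0.00045), but 6 rose and 1 fell without mouse 5 at 5 ppm. Cyp1a1, the P450 that the aryl hydrocarbon receptor induces, had levels of 5.69, 7.20, 5.88, 6.69 and 6.80 at 10 ppm, against 6.18, 4.78, 4.85, 4.63 and 4.49 at 5 ppm, which overlap through mouse 1 at 5 ppm, with a change of 1.47 ± 0.43 (SE, adjusted p = 0.0116). Ogn had an axis-adjusted change of -0.82. Ccdc39 had a change of -0.90 with its probe sets averaged.

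With the axis adjusted for, 8 endothelial markers were higher at 10 than at 5 ppm, 3 mitosis genes, 1 interferon gene and 1 ciliated marker were lower, and no splicing factor, chaperone or cholesterol synthesis gene was called. Of the elastic fibre and collagen genes 2 were higher, against 8 before the adjustment. Of the 26 genes named for this comparison, 16 lost their calls, among them Rbm25 (adjusted p = 0.0996), Gbp7 (0.0511) and Hsp90aa1 (0.417), while Mki67, Top2a, Trim12c, Ankrd12, Iigp1, Ccdc39, Ogn, Plvap, Tie1 and Tmem88 did not. The median change over all genes was 0.10 log2 in this comparison.

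Against the next higher concentration, limma called 0 of 17097 genes, with a lowest adjusted p of 0.063, and 1589 genes were under an unadjusted p of 0.05. The median change was -0.03 log2, the groups did not overlap for 492 genes (2.88%), and 22 genes differed by at least 1 log2. The array axis scores overlapped, at -0.79 to -0.08 for 10 ppm and -0.60 to 0.49 for 20 ppm. The naming rule gave no gene here, and Msh6, Mki67 and Tspan2 were carried over from the comparisons above. Msh6 averaged 6.56 at 10 ppm and 6.64 at 20 ppm, with a difference of -0.07 ± 0.14 (SE, adjusted p = 0.93). Mki67 averaged 4.06 at 10 ppm and 3.97 at 20 ppm (difference 0.09 ± 0.15, adjusted p = 0.913). The difference for Tspan2 was 0.27 ± 0.23 (adjusted p = 0.774). The median standard error over genes was 0.13 log2 with 5 mice in each group. The 22 genes that differed by at least 1 log2 were not called either, so an uncalled gene is not shown to have the same level in both groups.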

How the data were processed

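Whole-lung RNA of 35 mice was hybridised to Affymetrix 3' IVT arrays, 1 array per mouse, after extraction with Trizol and RNeasy, per the labels' protocols. The deposited log2 values are RMA levels of 45037 probe sets. The authors' processing used RMA and Partek, per the submitters' processing notes, with versions and roles not given in the sources used here. Scanner files, array scan order and extraction batches were not used here.

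Probe sets with exactly 1 gene symbol (28898) were kept, 551 with several and 15588 with none were left out, and the probe set with the highest mean over 35 arrays stood for each of 17097 genes. Gene symbols were from the platform annotation, checked by Entrez ID for 28689 probe sets. Limma 3.58.1 in R 4.3.3 fitted a mean for each of the 7 groups (lmFit, eBayes). P-values were two-sided and adjusted by Benjamini-Hochberg over 17097 genes, and adjusted p under 0.05 was called. Standard errors are moderated. The error behind each p-value is the mouse-to-mouse variation within groups, and 5 mice per group limit the precision. The array axis is the first principal component of the within-group residuals, scored on every array and added to the fit as a covariate. Tables and figures were made with Python 3.11.15, pandas 2.3.3 and matplotlib 3.10.9. On data simulated for 10 ppm against air over 17097 genes, 91 of 100 genes changed by 1 log2 and 99 of 100 changed by 2 log2 were recovered, with 11 false calls. The simulation drew each gene independently, without an array axis, and left most genes unchanged. Its false calls therefore do not measure those among the genes called here.

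Genes were named by a rule. Against air these were the 12 largest rises and falls among called genes whose groups did not overlap and whose higher group mean was at least 6 log2, from each list as many as 5 called members, smallest adjusted p first, and defining genes of a list. Against 5 ppm the numbers were 6 and 3. Against 20 ppm, where 0 genes were called, the rule named none. Calr and the uncalled interferon genes with a promoter motif were named for that motif. Other exceptions are stated where they occur. The members, gene lists and tests were chosen with earlier results of these data known. Replicate numbers came from the titles. Correlations of the deviations of same-numbered 10 ppm and air mice were -0.12 to 0.23, so the numbers were not taken to pair mice. Promoter sequences are RefSeq's, build GRCm38.p6.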

Additional observations from a re-analysis of the deposited data

Results flagged for a closer look

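In 310 groups of 5 mice, 1 for each named gene and group compared, the highest or lowest mouse was tested for standing apart from the other 4, as a gap over the range above 0.71. Chance flags about 1 in 20 such groups, and 19 were flagged. At 10 ppm, mouse 4 stood above the others for Armc6, at 6.75 against 6.10 to 6.21 in the other 4, and for Des, at 8.11 against 7.71 to 7.82. Mouse 2 at 10 ppm stood below for Ephx1, at 9.95 against 10.08 to 10.13, and for H2-DMa, at 7.86 against 8.33 to 8.50. Single 10 ppm mice also stood low for Gclc (mouse 5, 9.37 against 9.92 to 10.09), Myh11 (mouse 1, 6.60 against 7.00 to 7.13) and Trim12c (mouse 3, 3.28 against 6.06 to 6.88).

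In air, mouse 5 stood above the others for Lin7c (6.41 against 5.77 to 5.84), Hsdl2 (4.99 against 4.35 to 4.52), Rrm1 (6.65 against 5.38 to 5.66) and Mdm2 (6.24 against 5.67 to 5.83), and below them for Ercc1 (9.12 against 9.38 to 9.45). In each of these 5 genes it lay on the side of the 10 ppm mice, and this mouse had the lowest score on the array axis in air, 0.65. Air mouse 1, the highest on that axis at 1.91, stood above for Cnn1 (10.07 against 8.33 to 8.50) and Tppp3 (12.60 against 11.93 to 12.10). Air mouse 2 stood apart for Cdhr3 (4.53 against 5.31 to 5.60), Egfl7 (11.42 against 11.17 to 11.21) and Top2a (3.54 against 3.83 to 3.91). At 5 ppm, mouse 4 was low for Rbm25 (9.01 against 9.50 to 9.60) and mouse 1 high for Cyp1a1 (6.18 against 4.49 to 4.85).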

How the results depend on the processing

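Against air, 10326 to 12298 genes were called under quantile normalization, median centring, trended variances, array weights, only the groups compared, 1 ppm in place of air and averaged probe sets, against 11351. Leaving out each mouse in turn gave 10736 to 11495, and leaving out genes under 5 log2 gave 8726 of 10268, with 52.3% of calls higher against 43.6%. With every probe set tested alone 18036 were called, with a minimum of 1.5-fold 7513, and after adjustment for the array axis 4081. For 10 against 5 ppm the numbers were 7317 with every probe set, 1473 with the 1.5-fold minimum and 450 after that adjustment, against 4658, and without single mice 3359 to 4996. Array weights gave 6222 there, only the groups compared 5440, and leaving out dim genes 4614 of 10064 (45.8%). For 10 against 20 ppm, where 0 were called, quantile normalization, leaving out dim genes, the replicate block and the mean of probe sets each gave 2, array weights 41 and leaving out single mice 0 to 1. Mouse numbers share no known litter or batch: with them as a replicate block 11385 genes were called against air and 4698 against 5 ppm, and 2 of 5 numbered 10 ppm mice correlated best with their own number in air.

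Adjusting for the array axis turned Ckm to 0.0074, Mb to 0.20, Pgam2 to 0.36, Cyp2f2 to 0.071, Cyp2b10 to -0.11, Scgb1a1 to -0.0067, Foxj1 to 0.15, Mrc1 to -0.28, Nr1d2 to -0.65, Cnn1 to 0.043 and Mki67 to -0.41 log2. Cyp2f2 also turned under quantile normalization (0.065), with 1 ppm in place of air (0.024) and without air mouse 1 (0.0060), within a range of -0.042 to 0.0060 over single mice left out. With 1 ppm in place of air Hmox1 was 0.18 and Mki67 -0.17, and Dbp was called (-2.14, adjusted p = 0.026). None of the causes was tested. Scgb1a1 lost its call under quantile normalization, median centring, only the groups compared and the replicate block (adjusted p = 0.155, 0.498, 0.221 and 0.0563), and Cdkn1a under array weights (adjusted p = 0.139). Hmox1 was called under quantile normalization, only the groups compared and array weights (adjusted p = 0.0281, 0.0432 and 0.026). Averaging the probe sets moved 25 named genes by over 1.5 times with no call lost. The number of arrays limits the precision.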
